A study of Mus musculus with 16 samples.

Results

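Broad accessible domains are stretches of open chromatin of at least 5 kb. Overlapping or touching peaks of 16 islet samples were merged on chromosomes 1 to 19, and merged regions at least 5 kb wide that held a peak in all 16 samples were kept. This left 1045 domains of 347712 merged regions on these chromosomes (0.301%), or 2.55% of the 40940 in which every sample had a peak, called shared regions here. Width and presence chose the domains, so both are described and not tested.

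The samples came from the assay for transposase-accessible chromatin with sequencing (ATAC-seq) of pancreatic islets from the 8 founder strains of the Diversity Outbred mice, 1 female and 1 male sample per strain. The strains were 129S1_SvImJ, A_J, C57BL/6J, NOD_ShiLtJ and NZO_HlLtJ, which are classical laboratory strains, and CAST_EiJ, PWK_PhJ and WSB_EiJ, which are wild-derived strains. They are written below by the short forms 129, AJ, B6, NOD and NZO, and CAST, PWK and WSB. Each sample held 50 islets of average size, and no treatment, age or number of animals was given in the labels, so p-values measure the spread between samples. A sample's peak list held from 80392 peaks (AJ male) to 173735 (WSB female), and the depth of single samples was not used here. The sequence files were aligned to the B6 reference (build mm10), and all coordinates below are of that build.

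A typical ATAC-seq peak covers a promoter or an enhancer, where transcription factors displace nucleosomes over a short stretch of DNA. Longer stretches of open chromatin are known at genes with very active transcription and at clusters of enhancers that lie near genes of a cell's identity. In islets, beta cells make and store insulin, and the other endocrine cells make glucagon, somatostatin and pancreatic polypeptide.

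Sequences at the summits of 7 domains are shown to let a reader see what lies at the strongest point of such a stretch. The windows are up to 300 bases long and are centred on the summit that most samples shared, printed 5′ to 3′ on the gene's strand from the GRCm38.p6 reference (mm10), with annotated untranslated sequence left out. Capitals mark any of 10 motifs on either strand, namely the CCAAT box, the GC box (GGGCGG), the cyclic AMP response element (TGACGTCA), the AP-1 site (TGANTCA), the forkhead core (TGTTTAC), the homeodomain core (TAATTA), the NeuroD1-type E-box (CAGATG), an RFX site (GTTGCCA), the ETS site (CCGGAAGT) and the GATA site (AGATAA).
The first 2 windows are from the insulin genes, the hormone genes of beta cells, chr19:52264041-52264296 on the plus strand for Ins1 and chr7:142679727-142679999 on the minus strand for Ins2.
Ins1: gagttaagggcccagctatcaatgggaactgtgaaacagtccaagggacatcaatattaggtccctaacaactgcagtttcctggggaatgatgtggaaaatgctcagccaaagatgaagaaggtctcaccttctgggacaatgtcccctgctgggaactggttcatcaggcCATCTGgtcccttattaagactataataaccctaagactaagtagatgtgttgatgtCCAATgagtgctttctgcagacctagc
Ins2: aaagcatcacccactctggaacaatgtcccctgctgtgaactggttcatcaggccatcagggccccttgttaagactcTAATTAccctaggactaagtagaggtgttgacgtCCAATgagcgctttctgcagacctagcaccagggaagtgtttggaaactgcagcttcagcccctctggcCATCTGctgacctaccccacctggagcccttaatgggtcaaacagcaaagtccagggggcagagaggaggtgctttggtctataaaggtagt
Both windows held 1 CCAAT box and 1 CAGATG, an E-box of the kind that NeuroD1 binds, and Ins2 also held 1 homeodomain core, TAATTA.
The next 2 are from a potassium channel subunit of the insulin secretion pathway (chr7:46100636-46100935, minus strand) and from a protein-folding oxidase of the secretory pathway (chr13:12565505-12565804, plus strand).
Kcnj11: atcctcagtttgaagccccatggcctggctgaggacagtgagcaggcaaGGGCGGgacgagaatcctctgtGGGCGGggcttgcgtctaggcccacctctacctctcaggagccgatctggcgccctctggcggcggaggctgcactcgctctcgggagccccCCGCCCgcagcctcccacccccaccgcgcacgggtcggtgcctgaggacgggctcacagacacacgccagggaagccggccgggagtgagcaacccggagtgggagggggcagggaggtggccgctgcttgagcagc
Ero1lb: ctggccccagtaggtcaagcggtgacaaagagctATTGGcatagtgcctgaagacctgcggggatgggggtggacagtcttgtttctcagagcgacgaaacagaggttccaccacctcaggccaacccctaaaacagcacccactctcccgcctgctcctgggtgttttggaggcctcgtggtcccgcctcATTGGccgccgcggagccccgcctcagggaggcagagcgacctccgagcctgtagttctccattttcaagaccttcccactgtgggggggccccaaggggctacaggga
Kcnj11 held 3 GC boxes (GGGCGG), with the summit -549 bases from the nearest start, and Ero1lb held 2 CCAAT boxes, with the summit -219 bases from its start, a minus sign standing for upstream.
Atf3 (chr1:191183371-191183670, minus strand), a stress-induced transcription factor, held 6 GC boxes and stands for the immediate early genes.
Atf3: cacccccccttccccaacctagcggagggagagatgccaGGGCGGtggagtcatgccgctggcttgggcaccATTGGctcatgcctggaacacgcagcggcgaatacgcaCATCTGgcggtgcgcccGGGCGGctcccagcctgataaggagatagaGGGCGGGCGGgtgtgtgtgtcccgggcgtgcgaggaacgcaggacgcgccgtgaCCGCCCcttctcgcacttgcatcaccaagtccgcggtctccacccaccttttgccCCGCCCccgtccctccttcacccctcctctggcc
Scg5 (chr2:113821283-113821582, minus strand), which codes for the chaperone of a prohormone convertase, shows a summit inside a gene, 7688 bases after the nearest start.
Scg5: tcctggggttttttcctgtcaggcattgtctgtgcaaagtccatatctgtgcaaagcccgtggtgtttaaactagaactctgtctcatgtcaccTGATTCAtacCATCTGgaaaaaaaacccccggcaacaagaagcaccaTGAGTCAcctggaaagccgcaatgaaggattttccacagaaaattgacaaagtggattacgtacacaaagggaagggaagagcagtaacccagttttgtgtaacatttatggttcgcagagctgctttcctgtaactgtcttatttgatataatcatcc
The Scg5 window held 2 AP-1 sites (TGANTCA) and no GC box.
Gm14403 (chr2:177497984-177498283, plus strand), a gene model on chromosome 2, is shown because the covered extent of its domain differed widely between strains.
Gm14403: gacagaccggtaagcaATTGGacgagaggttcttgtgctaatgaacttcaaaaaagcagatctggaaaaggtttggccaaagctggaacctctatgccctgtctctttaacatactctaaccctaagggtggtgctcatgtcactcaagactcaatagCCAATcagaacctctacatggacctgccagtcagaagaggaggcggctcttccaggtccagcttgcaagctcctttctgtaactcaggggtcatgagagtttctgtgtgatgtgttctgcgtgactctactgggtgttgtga
This window held 2 CCAAT boxes.

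The same motifs were counted in 300-base windows around the most shared summit of every domain and of the 39895 shared regions under 5 kb. A GC box was found in 43.2% of domain summits and in 22.6% of the others. Summits also differed in position, since 50.0% of domain summits and 23.3% of the others were within 1 kb of a protein-coding start. Among summits near a start the shares were 72.2% (522 domains) and 68.4%, and among summits away from a start they were 14.1% (523 domains) and 8.64%. The cyclic AMP response element TGACGTCA was found at 4.21% of domain summits against 1.43% of the others, with 5.75% against 3.54% near a start and 2.68% against 0.788% away from one. It was found in 1.79% of all 32851 RefSeq promoters. AP-1 sites were found at 14.5% of domain summits against 15.5% of the others, with 6.7% against 5.14% near a start and 22.4% against 18.6% away from one. The homeodomain core TAATTA was found at 4.5% of domain summits against 8.78%, with 1.15% against 1.98% near a start and 7.84% against 10.8% away from one. The E-box CANNTG, which includes CAGATG, was found at 69.6% against 80.6%, with 57.9% against 63.4% near a start and 81.3% against 85.9% away from one. CAGATG itself was less common at domain summits, at 18.5% against 25.4%, with 8.43% against 10.5% near a start and 28.5% against 30% away from one. The CCAAT box was found at 38.3% against 34.7%, with 40.4% against 39.4% near a start and 36.1% against 33.2% away from one. Shares of the forkhead, RFX, ETS and GATA motifs are not given here. A match of letters is a description and does not show a bound factor.

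The domains spanned 10.3 Mb, which is 15.8% of the bases in shared regions. Their width had a median of 6964 bases, with quartiles of 5683 and 10038, and 263 domains were at least 10 kb, 65 at least 20 kb and 11 at least 50 kb wide. The 2 domains just inside the limit, both of 5000 bases, lay in Tbc1d1 (chr5:64262400-64267399), which was covered from 20.3% to 85.2% by the peaks of single samples, and at Rnf103 (chr6:71492200-71497199), covered from 32.4% to 98.9%. The shared regions just outside it were 4998 bases (chr4:152024377-152029374) and 4996 bases wide (chr16:67616948-67621943).

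The breadth was seldom that of 1 peak in every sample. Peaks of all 16 samples overlapped on 17.3% of domain bases, peaks of at least 8 samples on 51.3%, and 8.97% of domain bases were covered in 1 sample. The stretch covered in all 16 samples had a median of 1326 bases (quartiles 422 and 2342). It reached 5 kb in 44 domains and was 0 in 79. A single peak of at least 5 kb was found in every sample in 17 domains, in at least 1 sample in 890, and in no sample in 155, where the width came from merging. In 850 domains (81.3%) there was a peak at an irreproducible discovery rate under 0.05 between the sexes in all 8 strains, against 52.9% of other shared regions. Any such peak in the region counted, and a wider region has more positions for one. The most shared summit lay within 100 bases in all 16 samples in 477 domains (45.6%) and in 28184 other shared regions (70.7%). Summit signals below are divided by the sample's median over shared regions and called scaled signal. Their median was 2.79 in domains and 0.960 in other shared regions, and the maximum over a wider stretch is taken from more positions.

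A protein-coding transcription start lay in 654 domains (62.6%), against 23.7% of other shared regions. The greater width of domains was not taken into account in this comparison. A further 236 domains overlapped a protein-coding gene without holding its start, and 155 overlapped none. In all, 752 protein-coding genes had a start in a domain, which is 3.62% of the 20780 annotated on these chromosomes and 7% of the 10737 with a start in a shared region. By bases, domains were 10.3% exonic, 51.6% intronic and 38.1% intergenic, close to the 9.26%, 50.6% and 40.2% of other shared regions. Their median GC content (46.9% and 47.0%) was also close, and the observed to expected ratio of CpG was 0.313 in domains and 0.263 in the others.

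Genes of hormone processing and secretory granules had the largest share among the islet lists. Of 12 such genes, all 12 had a start in a shared region and 8 in a broad domain: Pcsk2, a prohormone convertase, Cpe, a carboxypeptidase that trims prohormones, the granins and their kin Scg3 and Scg5, the granule membrane proteins Ptprn and Ptprn2, the zinc transporter Slc30a8, and Ero1lb. Both insulin genes were members, of 8 islet hormone genes. Beta cell transcription factors gave 4 of 12 (Nkx2-2, Neurod1, Pax6 and Foxa2), pan-endocrine factors 3 of 12 (Myt1l, St18 and Tshz1), factors of alpha, delta and PP cells 1 of 7 (Meis2), exocytosis genes 3 of 8 (Syt7, Rab3a and Unc13a), and glucose sensing genes 2 of 12 (Slc2a2, the glucose transporter of mouse beta cells, and Kcnj11). The lists were chosen with earlier results of these data known, so the shares are descriptions beside the 7% over all genes in shared regions.

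The largest share among the lists was that of immediate early and AP-1 genes, which many stimuli switch on within minutes. Of 13 such genes, 11 had a start in a domain: Fos, Fosb, Fosl2, Jun, Junb, Jund, Egr1, Ier2, Nr4a2, Atf3 and Myc. The stretch covered in all 16 samples was also long in these 11 domains, with a median of 5097 bases. Ubiquitous housekeeping genes gave 3 of 10 (Actb, Gapdh and Eef1a1), and the list of chromatin and long noncoding regulators gave 2 of 7 (the long noncoding RNAs Malat1 and Neat1). No start of the marker lists for acinar (12 genes), duct (8), endothelial (10), stellate and stromal (9) or leukocyte cells (12) lay in a domain, and 1, 2, 2, 2 and 0 of these lay in any shared region. None of 8 neuronal and 8 muscle and liver genes was a member.

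**Figure D1:**
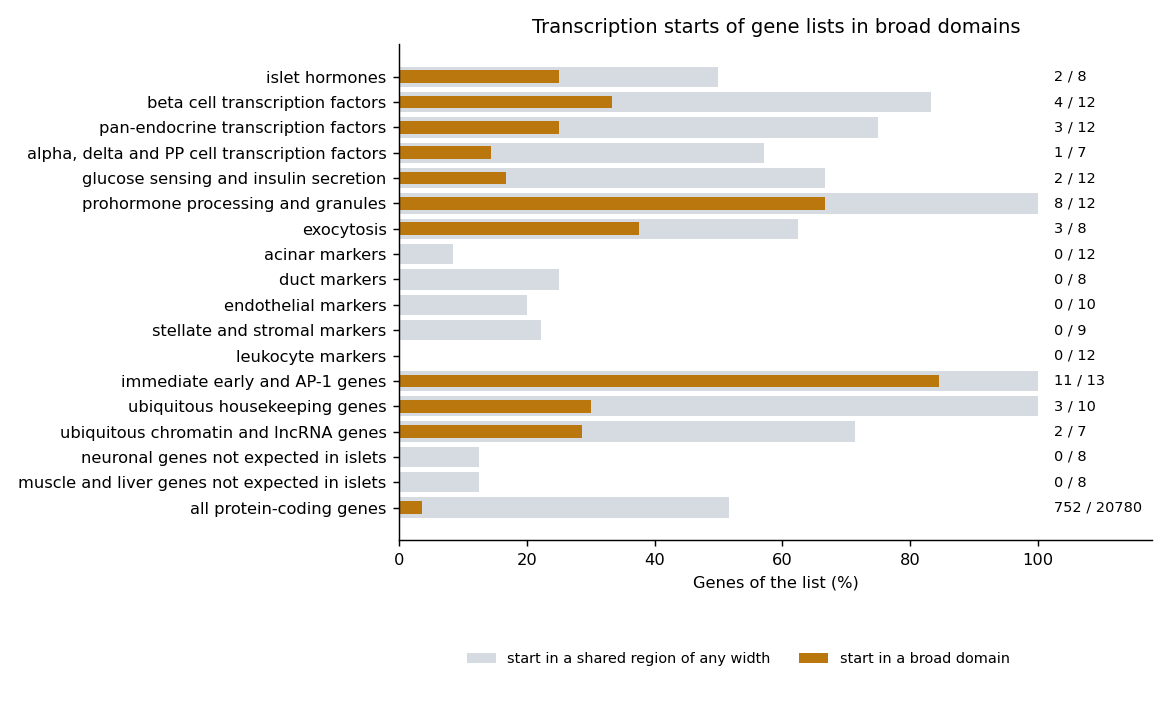
Bars give the percentage of genes of each list whose transcription start lay in a shared region of any width (grey) and in a broad domain (orange), with the number in domains and the list size at the right. Immediate early genes (11 of 13) and genes of prohormone processing and granules (8 of 12) had the longest orange bars, and no marker of acinar, duct, endothelial, stromal or leukocyte cells was in a domain.

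The insulin domains differed in their cores. Ins1 (chr19:52262713-52272847, 10135 bases) was covered by 24.8% in the NZO male, by a median of 51.9% and by 98.8% in the CAST female, and 2360 of its bases were covered in every sample. Ins2 (chr7:142675422-142680624, 5203 bases) ranged more widely, from 7.53% in the AJ male through a median of 49.6% to 99.8% in the CAST female, and no base was covered in every sample. Both samples of AJ covered under 9% of the Ins2 domain (8.98% in the female and 7.53% in the male), whereas both of CAST covered over 99% (99.8% and 99.2%). In bulk islets, fewer cells of a type and less open chromatin per cell cannot be told apart. The peak lists also differed in extent, with 41.9 and 33.1 Mb covered in the AJ female and male against 77.2 and 78.2 Mb in CAST. The part of this in the Ins2 values was not tested.

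Among transcription factors, Pax6, which all endocrine cells of the pancreas need, had the widest domain (31432 bases, of which 7906 were covered in all samples), covered from 34.6% in the NZO male to 95.6% in the CAST female. Neurod1 (10647 bases) ranged from 35% to 98.4% and Nkx2-2 (8517 bases) from 17.1% in the AJ male to 100% in the CAST male. St18 (9137 bases) ranged from 29.9% to 98.4% and Meis2 (12302 bases) from 30.6% to 98.6%. In each of these 5 the lowest coverage was in the NZO or AJ male and the highest in a CAST or WSB sample. This order is not particular to these genes. Over the bases of all domains, the AJ male (36.2%) and the NZO male (38.0%) were also low, and the CAST female was highest (73.4%).

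In the secretory group, Ero1lb had a domain of 26742 bases, covered from 12.6% in the NZO male to 94.8% in the 129 female, with a median of 45.5%. Cpe had 16845 bases, covered from 30.5% to 92.2%, and Scg5 12718 bases, from 43.7% to 99.1%. The Kcnj11 domain (25620 bases, reaching into the neighbouring Abcc8, which codes for the other subunit of the channel) was covered from 4.28% in the AJ male to 98.0% in the 129 female. For the vesicle release genes, Syt7, a calcium sensor (10765 bases), ranged from 26.3% in the 129 male to 97.2% in the WSB female, and Unc13a, which primes vesicles (7638 bases), from 31.3% to 92.3%.

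The immediate early domains were wide at Fosb (30047 bases, with Rtn2), Atf3 (27042 bases, with Fam71a) and Jund (26030 bases), and 9185, 5096 and 6509 bases of them were covered in every sample. Coverage ran from 36.9% in the AJ male to 99.8% in the 129 female at Fosb, from 24.6% in the B6 male to 92.6% in the 129 female at Atf3, and from 32.0% in the AJ male to 94.2% in the CAST male at Jund. Over the bases of all 11 domains together, coverage was lowest in the AJ male (43.0%), had a median of 64.1% and was highest in the 129 female (89.1%). For genes with starts in more than 1 domain, such as Pcsk2, Cpe and St18, the values are of the domain that holds the first annotated start.

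**Figure D2:**
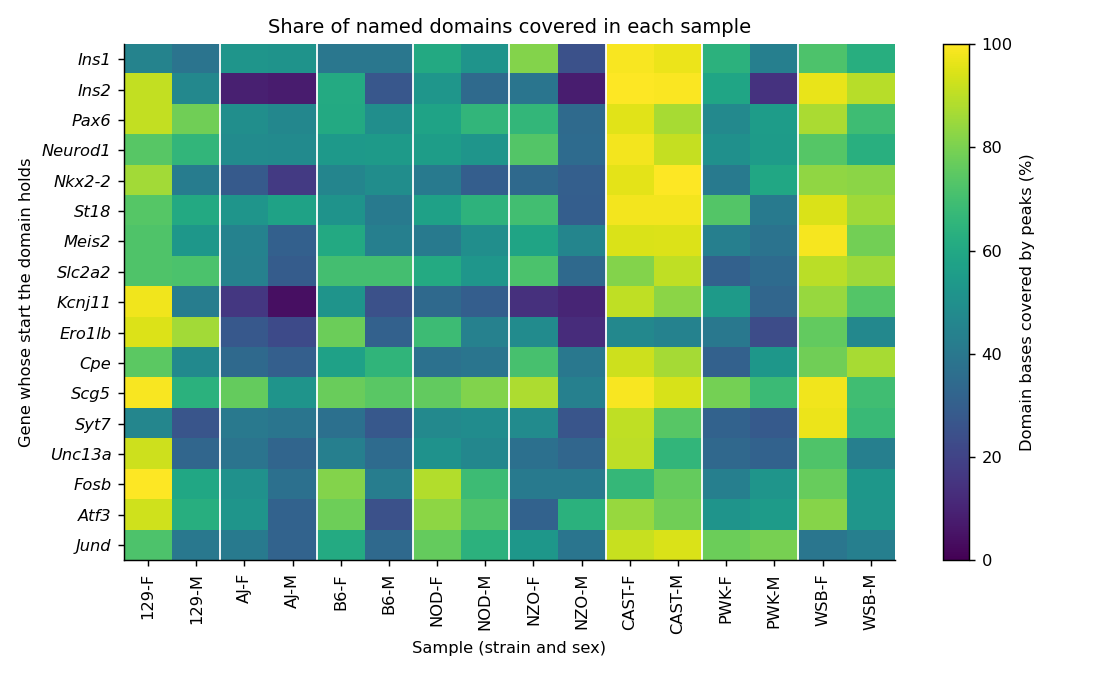
Each cell shows the percentage of a domain's bases covered by the peaks of 1 sample (colour scale from 0 to 100%), with 17 genes in rows and the 16 samples in columns by strain. Both CAST samples were near full coverage at Ins1 and Ins2, and AJ and the NZO male were low at Ins2 and Kcnj11.

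MicroRNA genes were also found in domains, 59 of 2054 annotated and of 236 in shared regions. Those below were named after their values were seen, as microRNAs with well-known roles in islets or other epithelial and endothelial cells, and their sequences are the RefSeq mature forms with the seed (bases 2 to 8) in capitals.
Mir7-2: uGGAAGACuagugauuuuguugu
Mir7b: uGGAAGACuugugauuuuguuguu
Mir200c: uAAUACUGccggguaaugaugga
Mir141: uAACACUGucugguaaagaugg
Mir129-2: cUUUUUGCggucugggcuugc
Mir27a: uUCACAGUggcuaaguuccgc
Mir27b: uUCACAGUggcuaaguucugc
Mir24-2 and Mir24-1: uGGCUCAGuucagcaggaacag
The forms from Mir7-2 and Mir7b share the seed GGAAGAC, those from Mir27a and Mir27b share UCACAGU, and Mir24-2 and Mir24-1 give the same mature sequence. Mir7-2, whose product is abundant in endocrine cells, had a domain with no protein-coding gene (11849 bases, covered from 36% to 99.6%). Mir200c and Mir141, of a family that is typical of epithelial cells, lay in 1 domain with Emg1 and Phb2 (12329 bases, covered from 19.9% to 89.2%). Mir375, an abundant microRNA of islet endocrine cells, lay in an 8040-base domain in Cfap65, covered from 51.1% in the AJ male to 100% in the 129 female, with 3064 bases in every sample. The 2 clusters of Mir23, Mir27 and Mir24 differed: the domain of Mir23b, Mir27b and Mir24-1 was one of the widest (94430 bases, median coverage 58.6%), while that of Mir23a, Mir27a and Mir24-2 (5577 bases) had a median coverage of 5.22% and no base covered in all samples. The Mir23a domain was broad only in the 129 female, which covered 97.9% of it. The next sample, the B6 female, covered 18.65%.

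Domains reached farther into genes than before them. In 491 domains that held starts of 1 protein-coding gene with its 5′ end inside, the domain extended by a median of 1682 bases before the gene's 5′ end and 4911 bases after it, and 415 (84.5%) were longer on the gene's side. In 7227 other shared regions of the same kind the medians were 642 and 1140 bases, and 78.8% were longer on the gene's side. In single samples, coverage between 1 and 5 kb upstream had a median of 14.2% (9.47% to 22.0%) and between 1 and 5 kb downstream a median of 39.2% (27.2% to 66.6%). All 16 samples were more covered downstream, by 17.7 to 44.6 percentage points. Within 250 bases of the 5′ end, coverage was 86.1% to 97.1%.

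**Figure D3:**
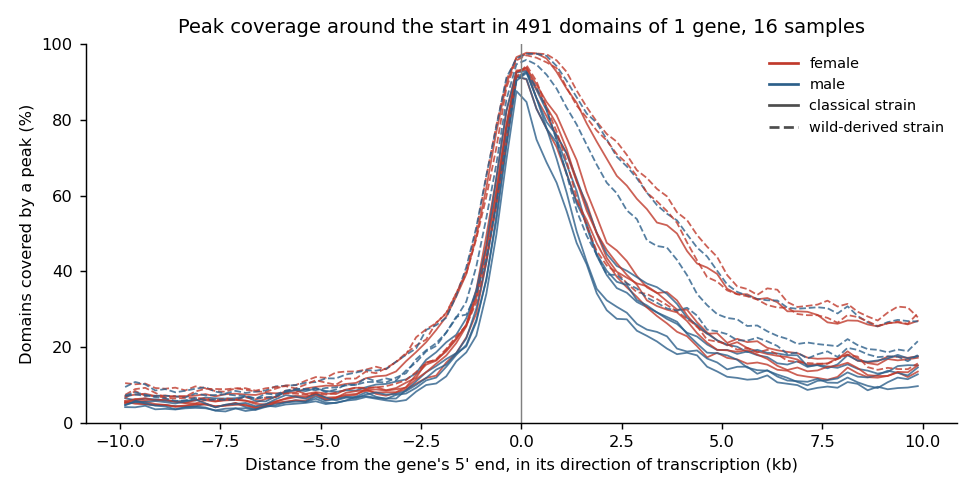
The percentage of 491 domains covered by a peak is plotted against the distance from the gene's 5′ end in the direction of transcription (kb, bins of 250 bases), with 1 line per sample coloured by sex and dashed for wild-derived strains. Every line fell more slowly downstream than upstream, and samples differed most between 1 and 5 kb downstream, where they ranged from 27.2% to 66.6%.

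The share of domain bases covered by a sample's peaks was higher in the female in every strain. Females and males covered 70.3% and 43.6% in 129, 42.6% and 36.2% in AJ, 50.2% and 40.1% in B6, and 73.4% and 70.9% in CAST. In NOD the values were 52.4% and 52.0%, in NZO 47.5% and 38.0%, in PWK 50.4% and 50.1%, and in WSB 67.7% and 58.2%. The difference was 8.17 ± 8.54 percentage points (SD, n = 8 strains), and without 129, whose own difference was 26.7 points, it was 5.52 ± 4.41 points. The peaks of these samples defined the domains, so these values are a description.

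For a test, each strain was measured in domains defined from the 7 other strains (864 to 1079 domains). Females and males then covered 67.0% and 44.4% in 129, 41.3% and 34.95% in AJ, 49.3% and 39.5% in B6, and 70.5% and 69.1% in CAST. The values were 51.8% and 51.5% in NOD, 47.3% and 37.5% in NZO, 48.55% and 48.5% in PWK, and 65.3% and 57.8% in WSB. The female covered 7.23 ± 7.41 points more and was higher in 8 of 8 strains, by only 0.05 points in PWK and 0.27 points in NOD (exact two-sided sign-flip p = 0.0078, the smallest that 8 strains allow). Without 129 the difference was 5.03 ± 4.35 points (7 of 7, exact p = 0.0156, the smallest for 7).

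Shared regions under 5 kb, defined in the same way for each strain, were also more covered in females. The difference there was 5.36 ± 5.50 points (6 of 8 strains, exact p = 0.0469), and without 129 it was 4.61 ± 5.48 points (5 of 7, exact p = 0.0938). The female excess in domains was larger by 1.87 ± 6.48 points (5 of 8, exact p = 0.438), so a difference between domains and narrower regions was not shown. The median summit signal over shared regions, which was lowest in the PWK male (32) and highest in the CAST male (136), was higher in the female in 6 of 8 strains, and the number of peaks in 4 of 8. The part of read depth in the difference was not tested. As a share of the bases of each sample's list, domains held 0.811 points more in females (6 of 8).

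**Figure D4:**
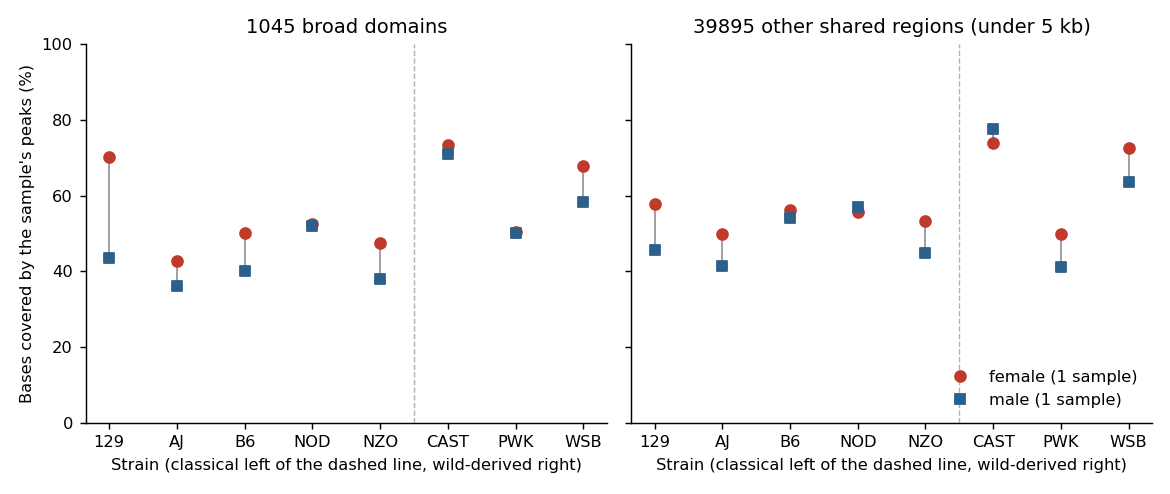
Points give the percentage of bases covered by the peaks of 1 female (circle) or 1 male (square) sample per strain, in 1045 broad domains (left) and in 39895 shared regions under 5 kb (right), with a line joining the sexes of a strain. In domains the female lay above the male in all 8 strains, by 26.7 points in 129 and 0.3 points in PWK.

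In 54 domains (5.17%) the female was more covered than the male in all 8 strains, against 2.12% of all 40940 shared regions on these chromosomes. The reverse held in 0 domains, against 0.0440% of shared regions. A tie in 1 strain kept a region out of both counts, and widths differed between the sets. The same samples defined the domains, so these counts and the genes named from them are a description. The 54 included both insulin genes, Slc30a8, Ero1lb, Kcnj11, Myt1l and Unc13a, so that 7 of the 23 domains on the islet lists were among them. They also held second domains of Cpe (7280 bases), Pcsk2 (10896 bases) and St18 (6028 bases). Outside the lists, and named after their values were seen, were the metallothionein genes Mt1 and Mt2, the phosphatase gene Dusp1, Txnip, which is induced by glucose, Ucp2, a mitochondrial carrier, the developmental transcription factors Hes1 and Sox4, and Lncpint. Of the 11 immediate early domains, 1 was among the 54, that of Junb.

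At Ins2, for instance, female and male coverage were 90.8% and 46.7% in 129, 61.1% and 27% in B6, and 58.7% and 14.5% in PWK. In CAST they were 99.8% and 99.2%, where little room for a difference was left.

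The summit signal gave no sex difference past the threshold. In limma with strain in the model, 0 of 1045 domains had an adjusted p under 0.05 for sex (smallest adjusted p = 0.999), against 0.00943% of the 42427 shared regions of all chromosomes tested together. An unadjusted p under 0.05 was found in 20 domains (1.91%), against 4.07% of all shared regions.

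Between strains, coverage was highest in CAST (72.1% ± 1.73, SD, n = 2) and WSB (62.9% ± 6.73), and lowest in AJ (39.4% ± 4.51) and NZO (42.8% ± 6.72). PWK (50.3% ± 0.212), the third wild-derived strain, lay below NOD (52.2% ± 0.258) and 129 (56.9% ± 18.9) and above B6 (45.2% ± 7.14). Of neighbours in this order, CAST and WSB, and NOD and PWK, differed by more than the SD of either, and the others did not. With 2 samples per strain no test was made. Both samples of CAST covered a domain more than all 14 other samples did in 241 domains, both of WSB in 68, and both of B6 in 0. Both samples of AJ covered a domain least in 96. These counts use the samples that defined the domains and are descriptions.

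Wild-derived and classical strains were compared with each strain again measured in its own set of domains, defined from the 7 other strains. The sets ran from 864 domains for CAST to 1079 for AJ, so the strains were not measured over the same bases. Mean coverage in males was 58.5% ± 10.3 (SD, n = 3) for wild-derived and 41.6% ± 6.55 (n = 5) for classical strains, and the gap of 16.9 points did not pass the threshold (exact permutation p = 0.0536, two-sided, smallest possible 0.0179). The highest classical male, NOD, lay above PWK. Leaving out 1 strain gave 11.6 points without CAST (exact permutation p = 0.143) to 21.9 points without PWK (exact permutation p = 0.0476). In females the means were 61.5% ± 11.5 and 51.3% ± 9.58, a difference of 10.1 points (exact permutation p = 0.268).

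Domains defined from 1 sex and measured in the other gave like values, but the other sex of the same strain took part in that definition, so these are a description. In 958 domains defined from the 8 females, males covered 60% ± 10.9 in wild-derived and 42.5% ± 6.33 in classical strains, a difference of 17.5 points, or 11.9 points without CAST. In 685 domains defined from the males, females covered 71.1% ± 9.77 and 60.3% ± 7.92, a difference of 10.8 points. As a share of each list's bases, wild-derived strains were lower, by -0.765 points in males and -1.50 points in females.

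For summit signal, limma with sex in the model gave a strain effect in 316 domains (30.2%) at an adjusted p under 0.05, against 34.9% of all 42427 shared regions. The share in domains was thus close to the background. Called domains with both samples of 1 strain above or below all other samples numbered 230 (22.0%, against 23.2%). A domain can have more than 1 strain apart. In PWK 44 called domains lay above and 17 below, against 969 and 954 of all called shared regions. In NOD the counts were 21 and 4 (539 and 334 over all), in AJ 22 and 11 (778 and 722), and in 129 11 and 5 (262 and 445). They were 25 and 46 in CAST (1173 and 2709), 17 and 37 in WSB (669 and 753), 2 and 17 in B6 (338 and 376), and 2 and 10 in NZO (370 and 457). Fewer domains lay above than below in CAST, WSB, B6 and NZO, as in all called regions of these strains, whereas in 129 the order differed. The count of called domains moved with the samples used, from 179 without CAST (17.1%, against 15.0% of all shared regions) to 510 without the NZO female (48.8%, against 59.3%). It was 193 without the CAST female and 202 without the CAST male, and the background moved with it in each case.

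Domains with another copy in the reference were called more often. Of the 1045 domains, 96 (9.19%) had at least 50% of their bases in alignments of at least 1000 bases and at least 95% identity elsewhere in the genome, 27 of them on chromosome 8, 21 on chromosome 5 and 19 on chromosome 1. A strain effect was called in 76 of the 96 (79.2%) and in 240 of the other 949 (25.3%). The other 949 include domains with a smaller duplicated share, such as Gm14403 (33.9%). They also include repeat-masked domains in which the search found no duplicate, such as that of Gm10722 and Gm11168 (96.6% repeat-masked). Reads of near-identical copies can be placed on either, and the number of copies in each strain was not measured here, so values in duplicated domains are uncertain.

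The 10 domains with the smallest adjusted p for strain and 1 strain apart were mostly of this kind. The Gm2974 domain on chromosome 14 (5977 bases, all of them duplicated) had a scaled signal of 9.45 and 13.8 in the PWK female and male, 3.07 and 2.84 in 129, and 0.189 to 1.12 in the 12 other samples. PWK was 19-fold above the other samples on the log2(signal + 1) scale (limma adjusted p = 9.76e-07). Gm3667, another gene model of chromosome 14 (6608 bases, all duplicated) was high in the same strains, with 21.0 and 26.8 in PWK, 19.2 and 18.5 in 129, and 1.00 to 6.71 elsewhere (limma adjusted p = 1.23e-06). Gm14403, whose domain also overlaps the zinc finger gene Zfp970, and Gm14410, both on chromosome 2, were highest in NOD. At Gm14403 NOD had 42.1 and 42.3, followed by PWK with 40.3 and 31.2. CAST had 10.6 and 13.5 there, WSB 8.5 and 9.32, and the samples of the other strains 3.78 to 6.42. At Gm14410 NOD had 65.6 and 66.2, against 22.4 and 17.25 in PWK, 18.4 and 22.5 in WSB and 4.345 to 11.2 elsewhere.

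The Gm14403 domain (81842 bases, 33.9% duplicated) showed the same groups in extent. Peaks covered 97.1% and 99.8% of it in NOD, 97.2% and 95.5% in PWK, 88.8% and 82.8% in CAST, and 40.3% and 60.4% in WSB. The other 8 samples, of 129, AJ, B6 and NZO, covered 1.49% to 2.08%. Its summit window, printed above, was open in all 16 samples.

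Cwc22, Rubcnl and a region of chromosome 8 were the 3 of the 10 that had no duplicated bases by this search. The search used the B6 reference alone, so copies present only in other strains would be missed. The part of copy number in the values of these 3 domains was not tested. At Cwc22 (chr2:77943565-77951852), which codes for a splicing factor, WSB had 37.5 and 40.4, and the 14 other samples 1.85 to 7.04, an 11.6-fold difference on the log2(signal + 1) scale (limma adjusted p = 5.4e-06). WSB peaks covered 99.5% and 100% of this domain and those of other samples 11.3% to 26.5%. In Rubcnl (chr14:75049700-75068418), which codes for a regulator of autophagy, NOD (0.640 and 0.634) and PWK (0.613 and 0.812) were low and the 12 other samples lay between 3.60 and 6.97 (limma adjusted p = 4.33e-06). CAST alone was broad there, with 98.8% and 86.0% of the bases covered against 0.800% to 12.3% in the rest. A region without an annotated gene (chr8:19975600-19982023) was low in CAST, with 0.724 and 0.559 against 6.10 to 21.8 in the others (limma adjusted p = 2.59e-06). All 10 domains kept an adjusted p under 0.05 in each of their 33 or 34 alternatives.

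**Figure D5:**
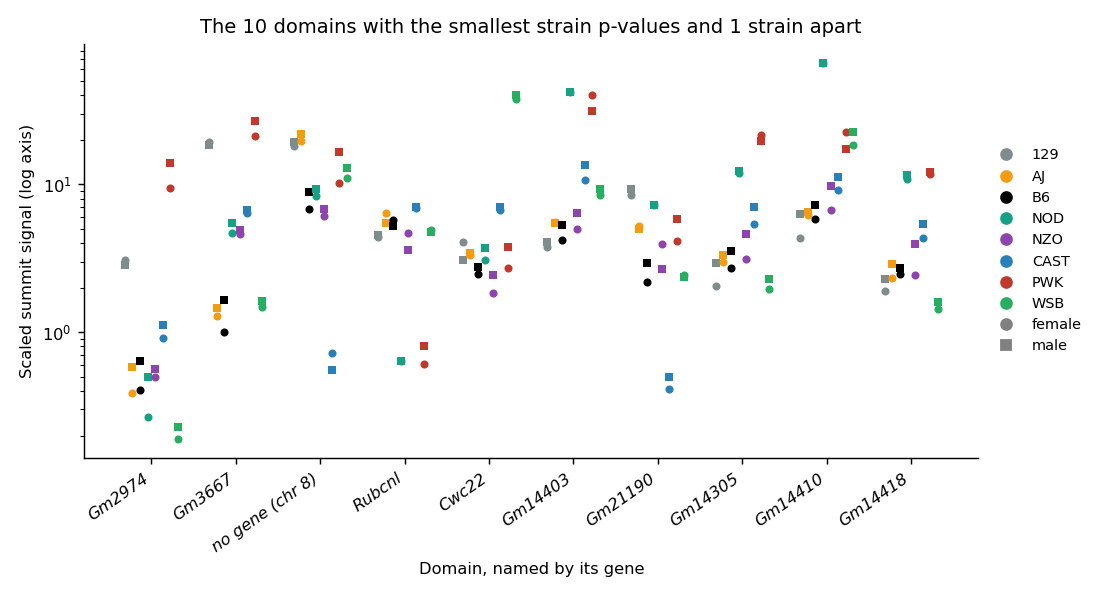
Scaled summit signal (log axis) of the 10 named domains in each of the 16 samples, coloured by strain, with circles for females and squares for males. WSB lay at 37.5 and 40.4 for Cwc22, CAST at 0.41 and 0.5 for Gm21190, and PWK at 9.45 and 13.8 for Gm2974. The domains were chosen by strain p-value and 1 strain apart, so closeness of a strain's 2 samples follows in part from the choice.

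On the gene lists, a strain effect was called in 7 of the 23 islet domains and 1 of the 11 immediate early domains, beside 30.2% of all domains and 34.9% of all shared regions. Scaled signal at Ins2 was 1.77 and 1.48 in the CAST female and male, 1.34 and 0.971 in 129, 0.585 and 0.400 in AJ, and 1.00 and 0.711 in B6. It was 0.593 and 0.561 in NOD, 0.617 and 0.382 in NZO, 1.05 and 0.781 in PWK, and 0.764 and 1.18 in WSB. CAST lay above all others, by 2.21-fold on the log2(signal + 1) scale (limma adjusted p = 0.00501, a call lost in 1 of 33 alternatives). At Ins1 it ran from 1.46 in the NZO male through 4.29 to 6.49 in the AJ female (limma adjusted p = 0.0636). Syt7 was lowest in B6, with 1.57 and 0.988 against 1.66 to 2.99 (limma adjusted p = 0.0154, lost in 2 of 34). Myt1l, lowest in NZO (0.778 and 0.618 against 0.783 to 1.49), and Kcnj11, lowest in AJ (0.985 and 0.982 against 1.01 to 2.76), had limma adjusted p-values of 0.0324 and 0.0440. These 2 calls were lost in 11 of 33 and 19 of 34 alternatives. The other called genes were Foxa2, Ptprn, Slc30a8 and, among immediate early genes, Jun.

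For wild-derived against classical strains, limma on strain means called 0 of 1045 domains (smallest adjusted p = 0.144), against 0.0330% of shared regions. An unadjusted p under 0.05 was found in 101 domains (9.67%), against 12.2% of shared regions. With no centring of samples 3 domains were called (0.287%, against 0.172% of shared regions), and without WSB 12 (1.15%, against 0.825%).

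The widest domain lay at Prl2c3, a gene of the prolactin family on chromosome 13 (147947 bases, 14.7% duplicated). No base of it was covered in all samples. Peaks covered 98.3% and 72.3% of it in 129, 89.4% and 47.1% in PWK and 79.9% and 53.2% in NZO, but 0.780% and 0.210% in CAST, which had the lowest signal (0.190 and 0.221 against 0.250 to 0.812, limma adjusted p = 0.00327, lost in 2 of 34 alternatives). Other wide domains had a long stretch common to all samples. Il1r1, the interleukin-1 receptor (74533 bases), had 13793 such bases, Lncpint, a long noncoding RNA (87653 bases), had 9913, and the domain of Mir23b and Mir27b had 9805. Their median coverage was 77.3%, 68.6% and 58.6%. Gm14322 and Gm15319, at 82325 and 78600 bases, were duplicated over their whole length, and Gm15319 had 10481 bases covered in all samples. Further wide domains lay at Gm14403, at Ugt1a1 (58873 bases) and at Gm21083 and Speer4d (67148 bases).

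The 2 highest median scaled signals were in repeat-masked domains. That of Gm10722 and Gm11168 at the start of chromosome 9 (9512 bases, 96.6% repeat-masked) had a median scaled signal of 119 (70.0 to 298) and was covered by 98.8% to 100% in every sample, and a second domain nearby (96.1% repeat-masked) had 73.7. Gm10060 on chromosome 8 followed with 45.6. Hjurp, a histone chaperone of centromeres on chromosome 1, had a median of 41.2, and was highest in PWK (78.8 and 83.2 against 16.7 to 48.6, limma adjusted p = 0.00849, a call lost in 3 of 34 alternatives). Gm21769 on chromosome 8 had 37.3. Over all domains, the median repeat-masked share was 17.7%, against 11% of other shared regions.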

How the data were processed

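Chromatin accessibility was measured in 16 islet samples, and 1 peak list per sample and 1 reproducibility list per strain were used. Per the labels and the study's methods, the authors trimmed reads with cutadapt 2.0, aligned them to mm10 with Bowtie2 2.3.4.1, removed mitochondrial and duplicated reads (SAMtools, Picard 2.9.2) and used MOSAiCS to call peaks (false discovery rate 0.05). The deposited summit and mean signal of a peak were not scaled to depth, and the peak p-value was deposited as −log10. The authors deposited the irreproducible discovery rate of both sexes of a strain as −log10 too. Depth per sample was not in the labels or lists and was not used here, so its part in precision was not measured. Blacklisted regions were filtered by the authors per their methods, yet satellite regions were present in the lists used.

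Peaks were merged with Python 3.11.15 (pandas 2.3.3, NumPy 2.4.6), and 0 columns were left without a sample. The largest summit signal per region and sample was taken as log2(signal + 1), centred on the sample's median over shared regions, and tested with limma 3.58.1 (R 4.3.3) over 42427 shared regions of chromosomes 1 to 19 and X, with Benjamini-Hochberg adjustment. The study fitted count models, which the lists do not allow. Class was tested on the 8 strain means, and the step was tested on simulated data. Coverage was compared by exact permutation and sign-flip tests over strains (SciPy 1.17.1). Repeated sequence was found with minimap2 2.31-r1302. Gene starts came from the GENCODE M21 basic set, which lists Ero1b as Ero1lb, windows from GRCm38.p6, and microRNAs and promoters from the RefSeq tables of that assembly. Alternatives were other widths, stricter or fewer peaks, other gaps, pseudocount, signal column and centring, and leaving out each strain or sample. Domains defined from 7 strains and measured in the eighth were added after seeing the data.

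The members and lists were chosen with earlier results of these data known. Domains named were the 10 widest, the 5 with the highest median scaled signal, the 10 with the smallest adjusted p for strain and 1 strain apart, up to 5 calls each for sex and class, up to 3 per gene list (widest first), and the 2 nearest the width limit on each side. MicroRNA domains and genes among those wider in all females were named after values were seen. One domain that this rule names is not reported here.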

Additional observations from a re-analysis of the deposited data

Results flagged for a closer look

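In the female minus male difference in domain bases covered, 129 was set apart from the other 7 strains, at 26.73 percentage points against 10.1 points in the next strain, B6. The difference was positive in all 8 strains.

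Chromosome X, which was outside the comparisons of coverage, held 20 broad regions of the same width with a peak in all 16 samples, with a median width of 7054 bases. Females covered 31.4 ± 15.8 points more of their bases than males (SD, n = 8 strains, 8 of 8 higher), against 8.17 points in the domains of the other chromosomes. Bases were pooled over the regions, so wide regions weighed most. The widest, with no named gene (chrX:31163783-31245048, 81266 bases), had mean coverage of 78.7% in females and 30.3% in males. Other wide regions with no named gene lay near it, such as chrX:33914819-33941269 (26451 bases, 77.9% and 45.4%). At Ddx3x, which codes for an RNA helicase (19820 bases), the mean coverage was 64.6% in females and 35% in males, at Atp6ap2 (6703 bases) 48.4% and 25.2%, and at Mid1 (9743 bases) 33.2% and 37.8%. The 2 sexes have different numbers of X chromosomes, and copy number and openness cannot be told apart here.

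Among the values of the 57 named domains, 38 of 228 groups of 8 had 1 sample set apart from the others. A WSB sample was set apart in 8 of these and the 129 female in 6, and other samples, such as those of PWK, in the rest. Chance sets apart about 1 group in 20, but many of these domains were named because 1 strain lay apart, so the count of 38 is not read against that share.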

How the results depend on the processing

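The number of domains, 1045, was 263 at a width of at least 10 kb, 3771 at 3 kb and 681 with only peaks of −log10 p of at least 10, and 864 (without CAST) to 1079 (without AJ) when 1 strain was left out. The female excess in coverage kept its direction in every alternative, at 5.52 to 9.29 points with 1 strain left out, and was 0.811 points as a share of each list's bases. The class difference in males, 17.5 points in domains defined from females, was 16.9 points in domains defined without the strain compared, 16.5 points with the 80000 strongest peaks and 11.9 to 22.8 points with 1 strain left out. As a share of list bases it turned to -0.765 in males and -1.50 in females. Strain calls were 646 with no centring, 494 with limma's trend, 99 of 263 domains of at least 10 kb, 1075 of 3771 of at least 3 kb, and 179 to 510 with a strain or sample left out (193 and 202 without the CAST female or male). Class calls were 3 with no centring, 1 with the deposited mean signal and 0 to 12 with a strain or sample left out. Sex calls were 0 under every alternative run. The causes of these changes were not tested. Depth per sample was not used here, so how far it limits coverage was not measured. The labels carry no replicate numbers, so no replicate block was fitted, but the sexes were paired by strain in the limma fits and the sign-flip tests.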
